A study of Mus musculus with 24 samples.

Results

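Dietary restriction in wild-type mice was examined in 8 of the 24 liver libraries of the series, chosen by their labels. The 4 restricted libraries come from wild-type mice (Ercc1 +/+) on 30% dietary restriction, and the 4 fed libraries from wild-type mice that ate ad libitum. All were male F1 hybrids of C57BL6J and FVBN, 16 weeks old, housed singly and kept on synthetic pellets. Wild types ate 3.0 g a day on average and restricted mice received 2.1 g a day. Restriction began at 7 weeks of age with 10% less food and reached 30% at 9 weeks. Food was given just before the dark phase, when mice are active, and none was given on the day of collection, for which the labels state no hour. The other libraries, also 4 a group, are fed and restricted Ercc1 d/- mutants at 16 weeks (2.3 and 1.6 g of food a day), fed mutants at 7 weeks and fed wild types at 104 weeks. ERCC1 is a subunit of a nuclease that repairs DNA, and loss of it makes mice age early. The mutants are used here to set their response to restriction beside that of the wild types.

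Each library is a ribosome profile: frozen, powdered liver was lysed and digested with RNase I, and the stretches of mRNA shielded by ribosomes were sequenced. A gene's value therefore reflects both how much of its mRNA is present and how many ribosomes sit on it. Levels are given as CPM, counts per 1000000 counts of a library after correction for library composition, as mean ± SD over 4 libraries, and changes as log2 of restricted over fed ± standard error (SE). Adjusted p comes from edgeR's quasi-likelihood test with Benjamini-Hochberg adjustment over all tested genes, and "rose", "fell" and "passed" refer to a value under 0.05. The labels number the samples of a group without saying more of their origin than that they are livers, so p-values measure the spread between these samples. In whole liver, fewer cells of a type and less RNA per cell cannot be told apart.

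The 8 libraries held 13366558 to 27084259 gene counts. Ercc1 had 38 to 59 counts in the fed and 34 to 110 in the restricted libraries, a log2 change of 0.15 ± 0.36 (adjusted p = 0.841), so wild-type libraries of both diets had footprints on it. All 12 hepatocyte markers were measured, and 1 of them, Alb, passed. The first principal component of the 8 libraries held 43.0% of the variance and placed the fed libraries close together (-0.334 to -0.304), whereas the restricted ones spread from 0.118 in replicate 2 to 0.673 in replicate 4. On this component restricted replicates thus differed more among themselves than fed ones, and results that rest on 1 of them are marked as such.

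The growth of mammals and part of the difference between male and female liver are driven by growth hormone from the pituitary. In male rodents it comes in pulses and in females nearly without breaks, and the pulses act through the receptor GHR and the transcription factor STAT5B to keep male-biased liver genes on and female-biased ones off. Major urinary proteins, which carry pheromones into urine, are among the most abundant products of male mouse liver. Ribosomal protein mRNAs form another well-known group that follows nutrition, since they carry a run of pyrimidines at their 5′ end, through which the nutrient-sensing kinase mTORC1 governs their translation.

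Restriction changed 1483 of 12211 tested genes, or 12.1%. Of these 664 rose, 5.44% of the genes tested, and 819 fell, 6.71%. More than 2-fold changes numbered 274 up and 359 down. With libraries scaled by total counts alone the split was 784 up and 563 down. The count was 941 without restricted replicate 4, and a fit of the 8 libraries alone called 658. Irrespective of the test, 1783 genes, 14.6%, had every restricted library above or every restricted library below all fed ones, and 1134 of the genes called were among them.

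**Figure D1:**
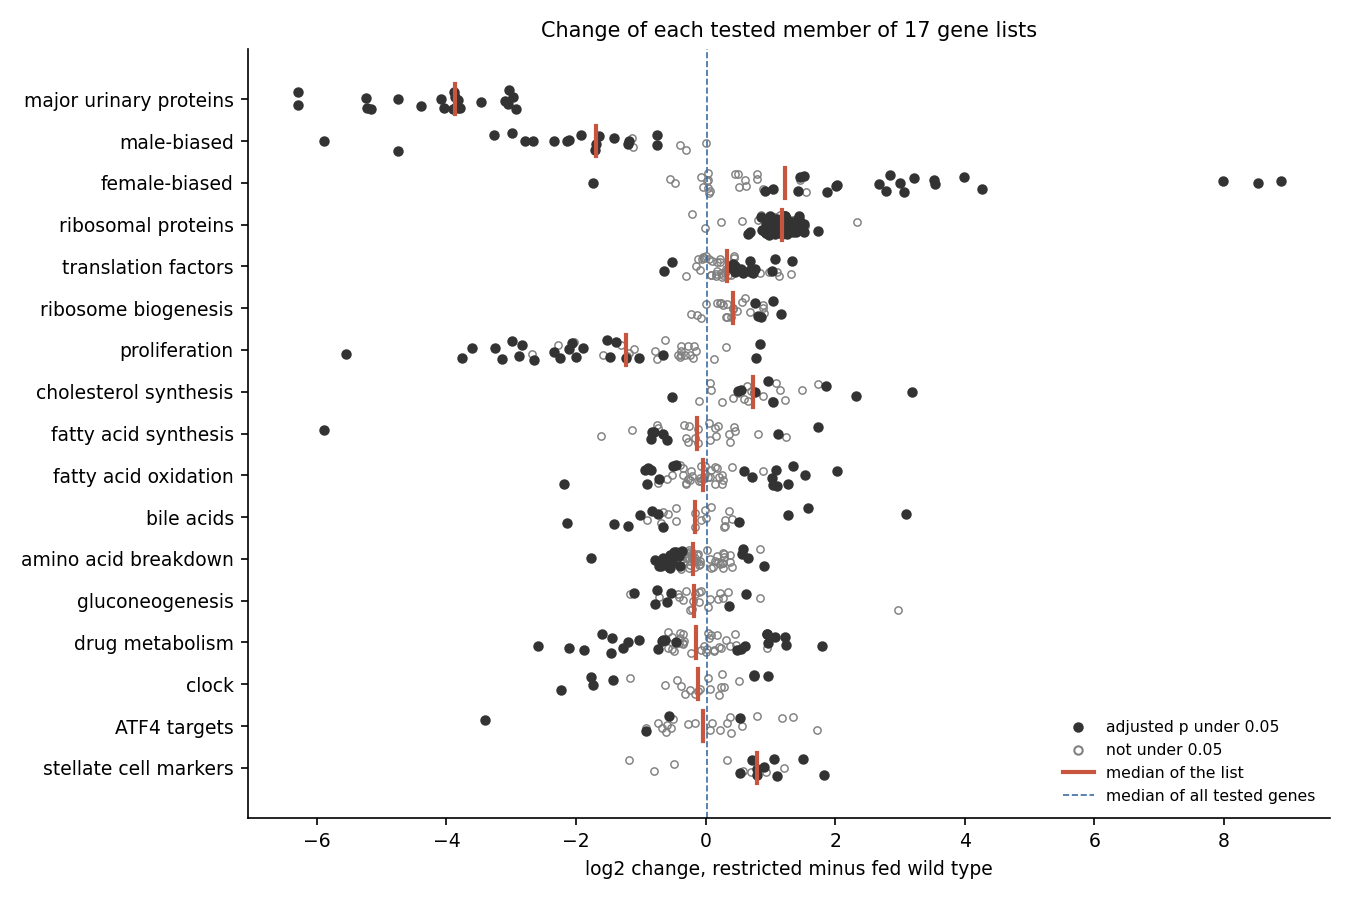
Log2 change of each tested gene (x axis, restricted minus fed wild type) in 17 gene lists (y axis). Filled points have an adjusted p under 0.05, red bars are list medians and the dashed line is the median of all tested genes; major urinary proteins lie at the far left with a median of -3.88, and ribosomal proteins form a narrow band around 1.18.

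Major urinary protein (Mup) genes had the lowest median of the 50 gene lists. The 22 tested members, which lie on chromosome 4 between 59956804 and 62150841 (GRCm38.p6), all fell, with log2 changes from -6.30 to -2.93 and a median of -3.88, where the median of all genes was 0.02. In a fit of the 8 libraries alone 9 of the 22 passed. Summed over the family, fed libraries had 44371, 70507, 76764 and 100363 CPM and restricted libraries 885, 12907, 4850 and 2955 CPM. Every restricted library lay below every fed one, and restricted replicate 2 kept the most. As a share of all gene counts the family took 6.94 ± 1.93% in fed and 0.526 ± 0.514% in restricted liver (exact 2-sided permutation p = 0.0286, the smallest that 4 against 4 libraries can give).

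Within the family, Mup8 had 550, 1816, 1831 and 2472 CPM in fed liver and 2.55, 45.3, 23.9 and 13.2 CPM in restricted liver. It was 78.7-fold lower (log2 -6.30 ± 0.67, adjusted p = 4.15e-06), and without restricted replicate 2 the log2 change was -6.99. Mup3, the most abundant member in fed liver, had 6977, 7961, 7186 and 9459 CPM there and 335, 2486, 703 and 621 CPM under restriction (log2 -2.93 ± 0.40, adjusted p = 4.4e-05; -3.84 without restricted replicate 2). Mup20, which encodes the male pheromone darcin, had 2381 to 4116 CPM in fed and 133 to 573 CPM in restricted liver (log2 -3.46 ± 0.38, adjusted p = 3.57e-06; -4.08 without that replicate). Mup7 went from 2810 to 9642 CPM down to 9.88 to 679 CPM (log2 -4.40 ± 0.74, adjusted p = 0.000606; -5.18 without it, and an adjusted p of 1.9e-17 to 0.077 over the alternatives, the highest in the 8 libraries alone). Members of this family are nearly identical in sequence and the treatment of reads that match several of them is not given in the sources used here, so the family sum is firmer than any single member.

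Other male-biased genes moved the same way as the Mup genes. Of 23 tested members of that list 18 fell and none rose, against 6.71% and 5.44% of all genes, with a median of -1.70. The 5 that did not pass were Bcl6, Egfr, Moxd1, Selenbp2 and Ugt2b38, and Moxd1 had no count in these 8 libraries. Cyp4a12a, a fatty acid hydroxylase of male liver, had 673, 613, 591 and 680 CPM in fed and 102, 77.5, 74.3 and 67.5 CPM in restricted liver. The 2 sets are far apart with little spread in either, a 7.96-fold fall (log2 -2.99 ± 0.17, adjusted p = 1.28e-11). Cyp2d9, another male cytochrome P450, fell 3.24-fold from 1725 ± 225 to 532 ± 44.6 CPM (adjusted p = 3.63e-08).

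Lower still, relative to fed liver, were Elovl3 and Hsd3b5. Elovl3, a fatty acid elongase, had 44.1, 137, 93.6 and 186 CPM in fed and 0.883, 5.2, 1.59 and 0.182 CPM in restricted liver (log2 -5.89 ± 0.65, adjusted p = 5.45e-06; -6.95 without restricted replicate 2). Hsd3b5, a steroid-metabolising enzyme, had 42.1, 90.1, 49.1 and 49.2 CPM against 0.622, 4.87, 2.65 and 0.546 CPM (log2 -4.75 ± 0.49, adjusted p = 1.96e-06; -5.49 without it). Again restricted replicate 2 stood highest of the 4. The complement genes C6 and C8a, whose products form part of the membrane attack complex, fell by 3.26 ± 0.20 and 2.34 ± 0.23 on the log2 scale. C6 had 135 CPM in fed replicate 1 and 271 to 292 CPM in the other fed libraries, against 21.8 to 27.3 CPM under restriction. Cyp7b1, an oxysterol hydroxylase, fell from 107, 188, 188 and 225 CPM to 24.1, 46.1, 63.1 and 27.2 CPM (log2 -2.14 ± 0.33, adjusted p = 0.000212).

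Female-biased genes rose in these male livers. Of 42 tested members 21 rose and 1 fell, against 5.44% and 6.71% of all genes. Their median was 1.23, 37 of 42 lay above 0, and in the 8 libraries alone 12 rose. Fmo6 (chromosome 1, 162916551 to 162937566), of the flavin-containing monooxygenase family, was not on the list and was named for its size. It had 0.235, 0.368, 0.04 and 0.414 CPM in fed and 43.5, 42.5, 56.4 and 45.8 CPM in restricted liver, 196-fold higher (log2 7.62 ± 0.46, adjusted p = 9.63e-11). It thus went from a few reads to a well-covered gene in every restricted mouse.

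The sulfotransferases Sult3a1 and Sult3a2 had the largest rises among the genes named here. How reads that match several genes were counted is not given in the sources used here, so the values of each alone are uncertain. Sult3a1 had 0.117, 0, 0.2 and 0 CPM in fed and 5.5, 113, 59.5 and 20.9 CPM in restricted liver (log2 8.87 ± 1.00, adjusted p = 6.82e-06). Its change was 8.08 without restricted replicate 2 and 9.66 without fed replicate 3. Sult3a2 had 2 counts in the 4 fed libraries together, all in replicate 3, and 939 in the restricted ones. The ratio of 437 has a 95% exact interval of 121 to 3614 for counting error alone, and the restricted libraries ran from 1.18 to 25.8 CPM (adjusted p = 2.17e-05). Its fitted log2 change of 8.53 ± 1.10 was 7.80 without restricted replicate 2 and 10.77 without fed replicate 3.

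Further female-biased genes rose by less from a measurable level. The organic anion transporter Slc22a26 had 4.03, 4.47, 3.32 and 3.14 CPM in fed and 17.4, 44.3, 29.6 and 28.3 CPM in restricted liver, 7.95-fold higher (log2 2.99 ± 0.29, adjusted p = 9.46e-08). Cyp17a1, a steroid hydroxylase and lyase, had 13.1 to 23.9 CPM against 54.7, 91.3, 213 and 117 CPM (log2 2.78 ± 0.52, adjusted p = 0.00153). Cyp2a4, a testosterone hydroxylase, rose from 393 ± 85.4 to 1122 ± 292 CPM (log2 1.51 ± 0.24, adjusted p = 0.00019). Cyp2b13, chosen after its values were seen, had 85.4, 69.4, 58.1 and 97.3 CPM against 200, 318, 440 and 181 CPM (log2 1.88 ± 0.44, adjusted p = 0.00788). Cux2, a repressor that holds male genes down in female liver, had 0.783, 0.796, 0.24 and 0.827 CPM in fed and 4.29, 5.41, 7.82 and 0.849 CPM in restricted liver (log2 2.84 ± 0.65, adjusted p = 0.00621), and restricted replicate 4 stayed at the fed level. The 1 member that fell was Ntrk2, a neurotrophin receptor, from 13.6 ± 2.67 to 4.05 ± 0.55 CPM (log2 -1.74 ± 0.26, adjusted p = 4.46e-05).

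**Figure D2:**
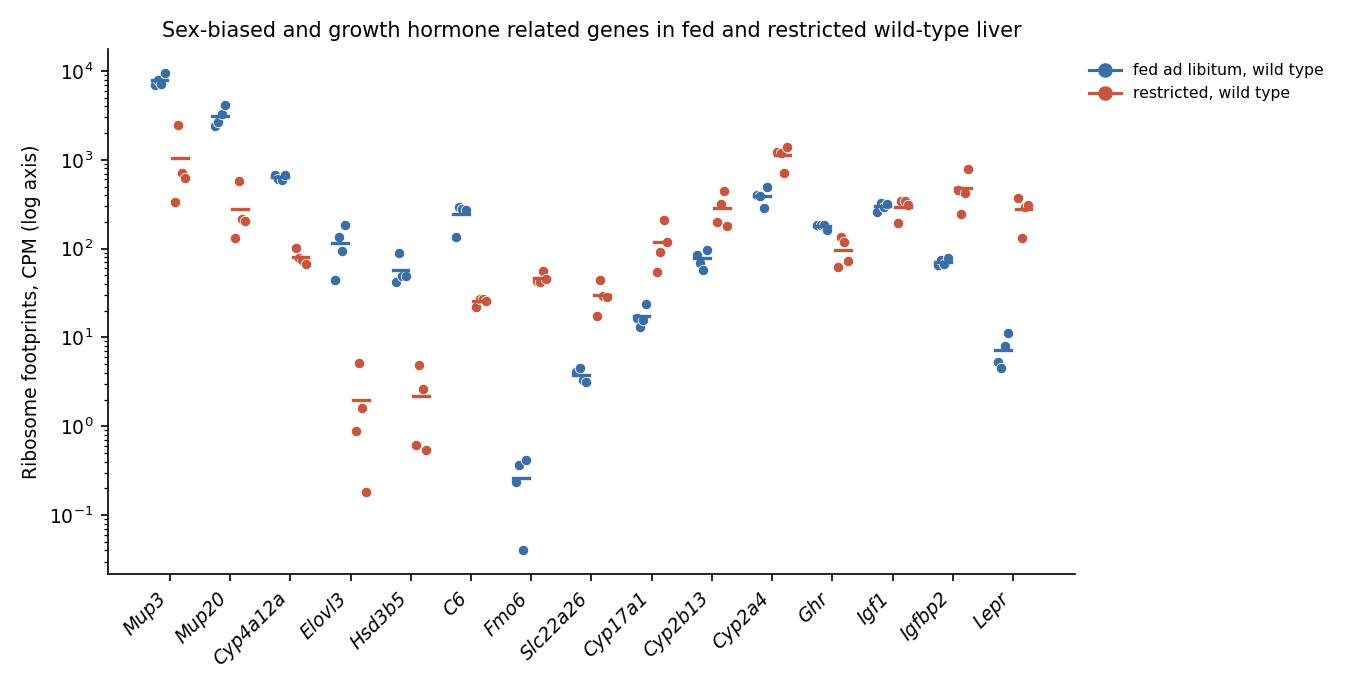
Ribosome footprints in CPM (y axis, log scale) of 15 genes (x axis) in the 4 fed (blue) and 4 restricted (red) wild-type libraries. Points are libraries and bars are means; male-biased genes from Mup3 to C6 lie lower and Fmo6 and the female-biased genes from Slc22a26 to Cyp2a4 higher under restriction, with Lepr at 131 to 374 against 4.53 to 11.1 CPM and Igf1 overlapping between diets.

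STAT5 proteins bind DNA at sites of the form TTCNNNGAA, and 3 promoters of rising genes that hold these letters are shown as examples of the letters searched. They come from RefSeq (build GRCm38.p6, 250 bases before to 50 bases after each annotated start) as 29 bases 5′ to 3′, with the match in capitals. Sult3a1 lies at chr10:33857603-33857631 on the plus strand, Slc22a26 at chr19:7802790-7802818 and Fmo6 at chr1:162937436-162937464, both on the minus strand.
Sult3a1: gtttggctgaTTCTTTGAAtagtttgttt
Slc22a26: ctggctaattTTCAGGGAAtttacaaatc
Fmo6: gcactcagcgTTCACAGAAgagatttgat
The matches begin at -109, -141 and -229 relative to an annotated start, of which a gene can have several. The start used for Fmo6 lies inside the gene's span given above, and so does its match. The letters, which read the same on both strands, stood in 5 of 31 female-biased genes found in the table, in 3 of 17 male-biased ones and in 0 of 14 Mup genes, against 9.55% of all 27025 genes. Such a match is a run of letters and no measured binding site.

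Of 21 tested genes of the growth hormone axis itself 3 passed, where 12.1% of all genes did. Igfbp2 and Cux2 rose and Ghr fell. Ghr, the growth hormone receptor, had 185, 185, 184 and 163 CPM in fed and 62, 136, 119 and 72.3 CPM in restricted liver, with no overlap (log2 -0.88 ± 0.17, adjusted p = 0.000809). Igfbp2, which binds insulin-like growth factors in blood, had 65.5, 74.3, 67.5 and 77.8 CPM in fed and 454, 246, 419 and 790 CPM in restricted liver, 6.70-fold higher (log2 2.74 ± 0.28, adjusted p = 8.04e-07). Igf1, the growth factor that liver releases in answer to growth hormone, had 257, 328, 297 and 320 CPM against 193, 347, 340 and 307 CPM. These sets overlap, and the log2 change was -0.02 ± 0.15 (adjusted p = 0.959). Socs2, a feedback inhibitor of GHR signalling, had 1.59 to 3.06 CPM in fed and 2.26, 10.1, 1.59 and 4.91 CPM in restricted liver (adjusted p = 0.479). Bcl6, a male-biased repressor of STAT5 targets, had 23.4 CPM in fed replicate 4, 1.53 to 3.61 CPM in the other fed libraries and 0.687 to 7.47 CPM under restriction (adjusted p = 0.462).

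Among hormone and fasting signals the leptin receptor stood apart. Lepr (chromosome 4, 101717137 to 101815352) had 5.33, 4.53, 7.92 and 11.1 CPM in fed and 374, 131, 293 and 310 CPM in restricted liver, 38.7-fold higher (log2 5.27 ± 0.45, adjusted p = 1.11e-07). The counts do not tell which of its splice forms was translated. Of 22 genes of the fasting hormone list 2 rose, Lepr and Angptl8, and 3 fell, Gcgr, Cidec and Foxo3. Over all genes 5.44% rose and 6.71% fell. The call of Cidec, a lipid droplet protein (adjusted p = 0.0201), was lost in 3 of 16 alternatives, with 0.0885 without fed replicate 3 and 0.0588 without restricted replicate 4 (0.0034 to 0.0954 over all). The transcription factor Foxo3 (adjusted p = 0.0382) lost its call in 9 of 16, among them any fit without fed replicate 1, 2 or 4 or restricted replicate 1, 3 or 4 (0.00692 to 0.152). Angptl8, a lipoprotein lipase inhibitor known to rise with feeding, had 35.6, 42.9, 33.9 and 22.9 CPM in fed and 150, 181, 162 and 210 CPM in restricted liver (log2 2.38 ± 0.62, adjusted p = 0.0165; 5.17e-05 to 0.0525 over the alternatives, the highest without fed replicate 4). Gcgr, the glucagon receptor, fell from 40.8 ± 1.93 to 25.3 ± 1.63 CPM (log2 -0.69 ± 0.12, adjusted p = 0.000255). Fgf21, a hepatic hormone of starvation, had 1.65 to 3.28 CPM in fed and 0.758 to 1.94 CPM in restricted liver (adjusted p = 0.352).

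Igfbp1, a target of glucagon and of FoxO factors that insulin represses, showed how unlike the restricted livers were. It had 11.2, 17.6, 12.7 and 4.39 CPM in fed liver and 2.19, 1.84, 21.7 and 219 CPM in restricted replicates 1 to 4. The log2 change was 2.4 ± 1.63 (adjusted p = 0.376), and without replicate 4 it was -0.40. Of 27 glucocorticoid and FoxO responsive genes 1 passed, where 12.1% of all genes did. It was the stress gene Gadd45b, which rose. Its adjusted p of 0.0377 was above 0.05 without fed replicate 1, 3 or 4 or restricted replicate 1 or 3 and in the 8 libraries alone (0.023 to 0.132 over the alternatives). Avpr1a, the vasopressin receptor of hepatocytes, rose from 4.15, 8.7, 4.36 and 9.6 CPM to 34.7, 24.6, 38.3 and 77.5 CPM (log2 2.73 ± 0.40, adjusted p = 0.000106).

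Ribosomal protein genes rose together. Of 81 tested cytosolic ribosomal protein genes 63 rose and none fell, against 5.44% and 6.71% of all genes, with a median of 1.18. In 75 of 81 every restricted library lay above every fed one, where 14.6% of all genes had no overlap in either direction. Summed CPM of the list were 7625, 6688, 5933 and 5992 in fed and 14529, 15012, 12214 and 14807 in restricted liver, and no library crossed over. Rpl18 had 132, 136, 116 and 109 CPM in fed and 240, 235, 208 and 250 CPM in restricted liver (log2 0.92 ± 0.17, adjusted p = 0.000677). Rpl21 had 15.9, 16.8, 16.8 and 12.2 CPM against 43.8, 40.6, 34.7 and 48.4 CPM (log2 1.43 ± 0.26, adjusted p = 0.000717). Rps28 rose from 35.5 ± 1.68 to 94.8 ± 14.1 CPM, Rps13 from 96.7 ± 13.6 to 193 ± 22.2 CPM and Rps25 from 92.7 ± 14.8 to 198 ± 19.8 CPM, with adjusted p of 0.00188, 0.0018 and 0.00207.

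The number of ribosomal protein genes past the threshold depended on single libraries more than their level did. It was 38 of 81 without fed replicate 3 or without fed replicate 4, and 75 in the 8 libraries alone, while the median stayed between 1.12 and 1.27 in every alternative. Many of these genes have processed pseudogenes with near-identical sequence, and how reads shared with them were counted is not given in the sources used here.

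**Figure D3:**
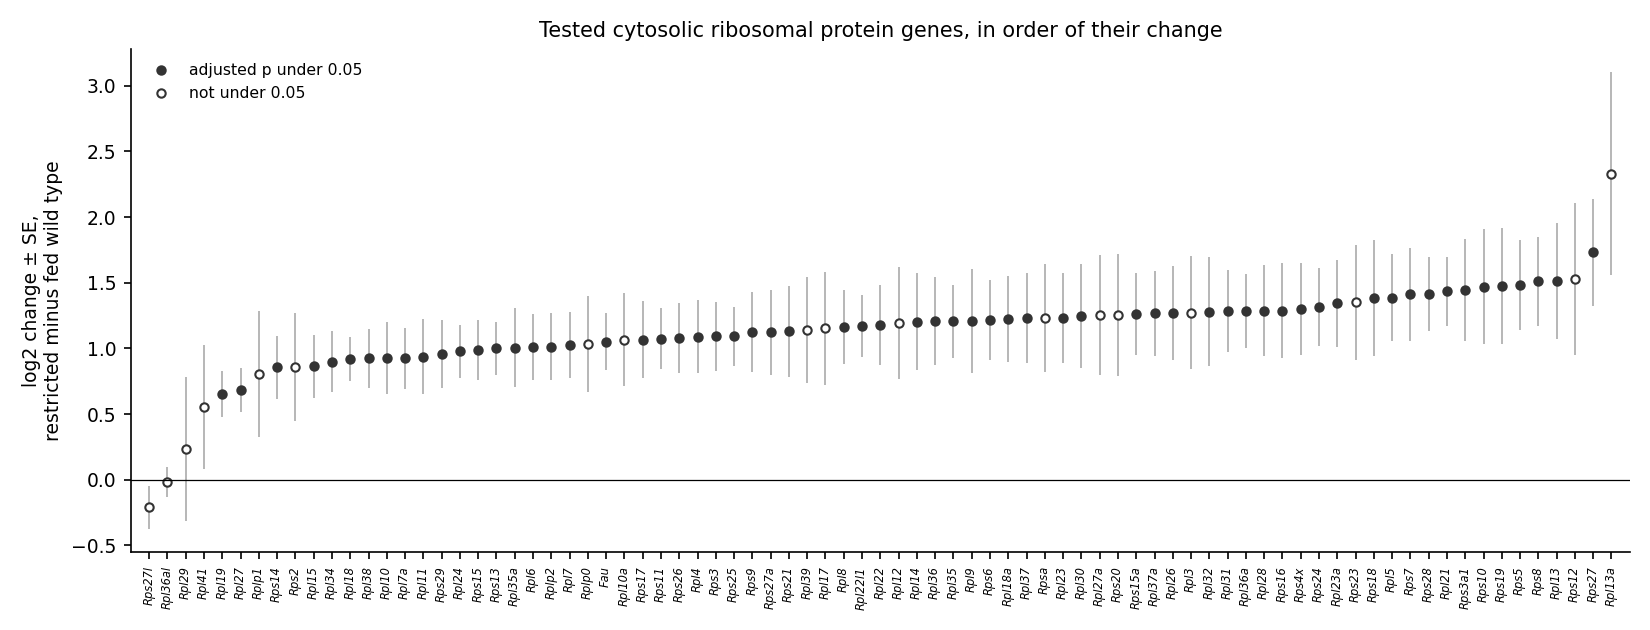
Log2 change ± SE (y axis, restricted minus fed wild type) of the 81 tested cytosolic ribosomal protein genes (x axis), in order of their change. Filled points, 63 in all, have an adjusted p under 0.05, and 79 of the 81 points lie above 0.

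The pyrimidine tract at the 5′ end of these mRNAs can be read in the RefSeq starts. Shown are 6 of the ribosomal protein genes with the smallest adjusted p among those of the table that hold, within 5 bases of an annotated start, a C followed by at least 4 pyrimidines. Each window has 30 bases, 15 before and 15 from the start on, 5′ to 3′ in build GRCm38.p6, with the run from that C in capitals. Rpl18 lies at chr7:45718056-45718085, Rpl22l1 at chr3:28805493-28805522, Fau at chr19:6057932-6057961, Rps24 at chr14:24490663-24490692 and Rpl38 at chr11:114668565-114668594 on the plus strand, and Rpl35 at chr2:39005117-39005146 on the minus strand.
Rpl18: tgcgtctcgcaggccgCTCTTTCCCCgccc
Rpl22l1: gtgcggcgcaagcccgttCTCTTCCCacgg
Fau: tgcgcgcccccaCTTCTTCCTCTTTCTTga
Rps24: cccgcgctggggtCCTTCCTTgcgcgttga
Rpl35: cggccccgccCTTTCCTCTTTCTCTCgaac
Rpl38: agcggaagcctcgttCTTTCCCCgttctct
Such a run was found in 30 of 61 ribosomal protein genes of the table and in 21.2% of all genes. Annotated starts can be some bases off, so a missing run says nothing of an mRNA's true end. Of the 30 genes with a run 23 rose, with a median of 1.16, and of the 31 without one 25 rose, with a median of 1.21.

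The rest of the translation machinery moved less. Of 51 translation factors 15 rose and 2 fell, against 5.44% and 6.71% of all genes, with a median of 0.33. The count of 15 was 7 without fed replicate 2, 3 or 4, 8 without restricted replicate 1 or 4 and 21 without restricted replicate 3. Eef1d, a subunit of the exchange factor that reloads eEF1A, rose from 76.4 ± 7.84 to 130 ± 6.61 CPM (log2 0.76 ± 0.15, adjusted p = 0.00155). Eif4g3, a scaffold of the cap-binding complex, fell from 33.9 ± 2.95 to 21.7 ± 5.45 CPM (log2 -0.64 ± 0.14, adjusted p = 0.00301; 0.000191 to 0.0667 over the alternatives, the highest in the 8 libraries alone). Of 26 genes of ribosome biogenesis 5 rose and none fell, with the histone and ribosome chaperone Npm1 at 66.4, 53.1, 62.3 and 49.7 CPM in fed and 128, 162, 93.2 and 138 CPM in restricted liver (log2 1.17 ± 0.18, adjusted p = 6.57e-05).

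Other lists of protein and energy supply were counted against the 5.44% of all genes that rose and the 6.71% that fell. Of 22 cytosolic tRNA synthetases 1 rose, of 79 mitochondrial ribosomal proteins 3 rose and 2 fell, and of 76 nuclear genes of oxidative phosphorylation 6 rose and none fell, with a median of 0.15. None of the 13 mitochondrially encoded genes passed (median 0.41). None of 33 tested mTORC1 regulators and nutrient sensors passed, against 12.1% of all genes. Of 45 genes of autophagy and lysosomes 5 rose and 6 fell, with the phosphoinositide-binding autophagy protein Wipi1 down from 8.07 to 11.9 CPM to 2.87 to 4.84 CPM (log2 -1.44 ± 0.28) and the protease Ctsl up (log2 0.75 ± 0.19). Of 35 proteasome genes 3 fell and none rose.

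Albumin took a larger share of all footprints. Alb, the main plasma protein, made up 10.7, 9.18, 10.2 and 9.65% of gene counts in fed and 15.8, 14.2, 17.03 and 18.6% in restricted liver (exact 2-sided permutation p = 0.0286). In scaled CPM its log2 change was 0.68 ± 0.19 (adjusted p = 0.0169; 0.00197 to 0.0541 over the alternatives, above 0.05 without restricted replicate 4 and in the 8 libraries alone). The 10 genes with the most counts, not corrected for length, took 25.6 ± 0.589% of counts in fed and 30.4 ± 3.65% in restricted liver. With albumin and the Mup genes left out of the counts, the 10 largest of the remaining genes differed by -2.35 percentage points (exact 2-sided permutation p = 0.2).

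Lipid genes did not move as one block. Of 51 genes for burning fatty acids and making ketones, PPAR alpha targets among them, 10 rose and 8 fell, with a median of -0.03. Over all genes 5.44% rose and 6.71% fell. Cd36, which brings fatty acids into cells, fell from 139, 76, 152 and 187 CPM to 24.3, 27.7, 36 and 34.3 CPM (log2 -2.18 ± 0.26, adjusted p = 4.36e-06). Fabp1, the fatty acid binding protein of liver, fell from 4215 ± 823 to 2204 ± 568 CPM (log2 -0.94 ± 0.17, adjusted p = 0.000686). Ehhadh, a peroxisomal oxidation enzyme, rose from 651, 385, 505 and 674 CPM to 1968, 852, 951 and 979 CPM (log2 1.10 ± 0.23, adjusted p = 0.00257).

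Some omega-hydroxylases of the Cyp4a family rose, where the male member Cyp4a12a fell. Cyp4a29 had 17.9, 7.54, 14.8 and 20.9 CPM in fed and 127, 49.6, 95.9 and 108 CPM in restricted liver (log2 2.64 ± 0.30, adjusted p = 3.57e-06). Cyp4a14, chosen after its values were seen and also counted among the female-biased genes, had 237 to 1173 CPM against 1845 to 3734 CPM (log2 2.03 ± 0.50, adjusted p = 0.0117). Cpt1a, the gate of mitochondrial fatty acid uptake, had 505 to 564 CPM in fed and 517, 489, 190 and 247 CPM in restricted liver (log2 -0.59 ± 0.23, adjusted p = 0.0992). Pdk4, which slows glucose oxidation, had 3.68 to 4.96 CPM against 7.36, 7.09, 8.66 and 25.2 CPM (log2 1.54 ± 0.48, adjusted p = 0.0408; 0.00891 to 0.227 over the alternatives). Without restricted replicate 4 the change of Pdk4 was 0.93, and its call was lost in 7 of 16 alternatives, among them that one, those without any 1 of the fed replicates and that with no filter on low counts. Fitm1, on no list and named for its difference between genotypes, is a membrane protein that partitions triglyceride into lipid droplets. It fell from 17.7, 16.9, 28 and 19.6 CPM to 0.916, 2.71, 0.839 and 0.728 CPM, 16.1-fold lower (log2 -4.01 ± 0.30, adjusted p = 9.02e-10; -4.61 without restricted replicate 2).

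Lipogenic genes split as well. Of 30 genes of fatty acid synthesis and SREBP1 targets 2 rose and 6 fell, against 5.44% and 6.71% of all genes, with a median of -0.14. Summed over the list, fed libraries had 9957 to 16805 CPM and restricted ones 8688 to 9862 CPM, without overlap. Scd1, which did not pass (values below), held a large part of these sums and most of the gap between their means. The largest fall, of -5.89, was that of Elovl3, which is also counted among the male-biased genes. Mid1ip1, an activator of acetyl-CoA carboxylase, rose from 28.2, 13.9, 28.4 and 14.3 CPM to 98.4, 37.1, 63.3 and 86.4 CPM (log2 1.74 ± 0.40, adjusted p = 0.00738), and G6pdx, which supplies NADPH, from 3.94 ± 1.24 to 8.70 ± 2.91 CPM (log2 1.11 ± 0.25, adjusted p = 0.00461). Fasn, the fatty acid synthase, had 1545, 630, 1046 and 424 CPM in fed and 2406, 440, 2231 and 1325 CPM in restricted liver (adjusted p = 0.391), with wide spread in both groups. Scd1, the stearoyl-CoA desaturase, had 8691, 8788, 6220 and 5485 CPM against 3328, 4092, 2131 and 3709 CPM. These sets do not overlap, yet the change of -1.14 ± 0.40 did not pass (adjusted p = 0.0704; 0.0157 to 0.17 over the alternatives). Srebf1, a lipogenic regulator, had an adjusted p of 0.609.

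Cholesterol synthesis leaned up. Of 26 tested genes of this list 8 rose and 1 fell, against 5.44% and 6.71% of all genes. Their median was 0.73, with 24 of 26 above 0. The count of 8 was 3 without fed replicate 4, 4 without fed replicate 2, 5 without fed replicate 3 and 3 in the 8 libraries alone, and DESeq2 called 13. Sqle, squalene epoxidase, had 4.27, 1.16, 4.28 and 1.24 CPM in fed and 41.4, 8.6, 27.4 and 26.7 CPM in restricted liver (log2 3.18 ± 0.65, adjusted p = 0.00307). Cyp51, a sterol demethylase, had 52.6, 35.6, 57.4 and 28 CPM against 102, 64.8, 131 and 58.7 CPM (log2 1.04 ± 0.29, adjusted p = 0.0193; 0.00367 to 0.0679 over the alternatives). All restricted libraries lay above all fed ones, and the call was lost without fed replicate 2 or 4 or restricted replicate 3 and in the 8 libraries alone.

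**Figure D4:**
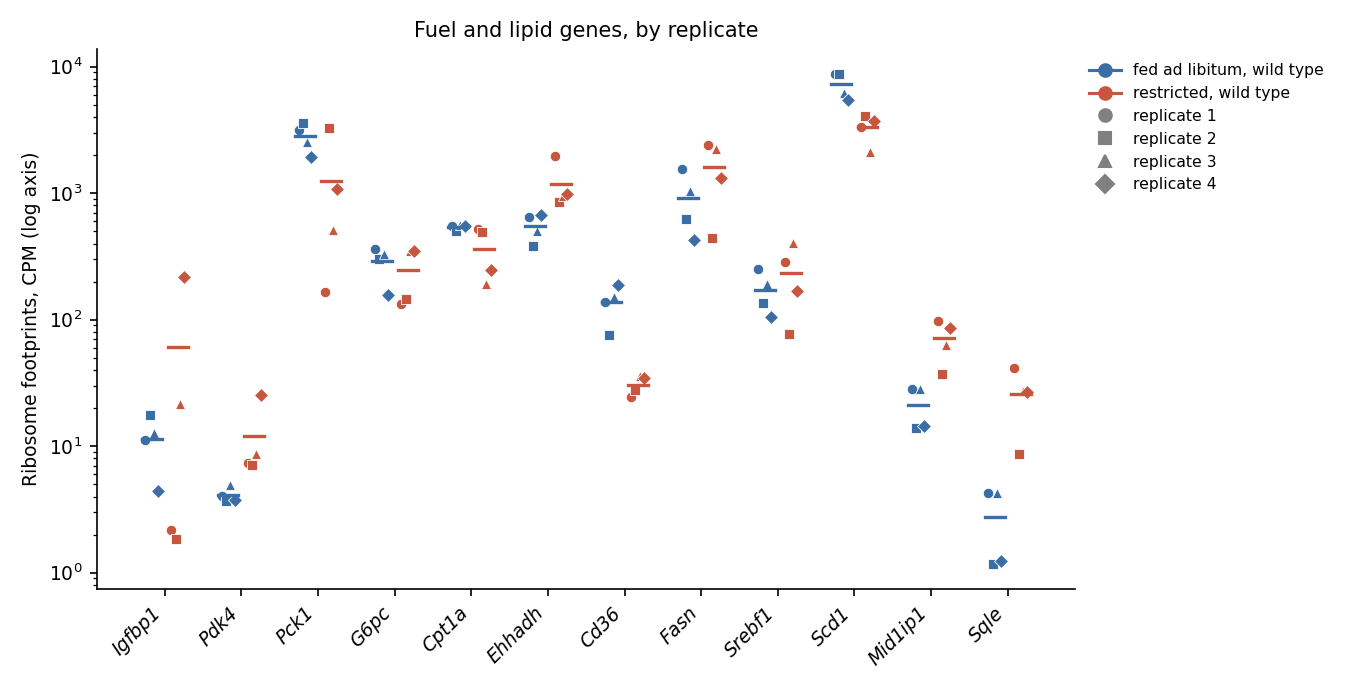
Ribosome footprints in CPM (y axis, log scale) of 12 genes of fuel and lipid metabolism (x axis) in fed (blue) and restricted (red) wild-type libraries. Each symbol shape is 1 replicate number, which names a library and was not taken to pair mice, and bars are means. Igfbp1 spans 1.84 to 219 CPM among restricted livers, where Scd1 spans 2131 to 4092 CPM.

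Transport and hydroxylation of bile acids and sterols held some of the largest single changes. Slc10a2, Cyp39a1 and Slc22a7 were on no list and were named for their size. Slc10a2, the sodium-dependent bile acid transporter of ileum and bile duct, had 51, 82, 53 and 50.8 CPM in fed and 1.18, 3.41, 2.21 and 2 CPM in restricted liver, 27.3-fold lower (log2 -4.77 ± 0.46, adjusted p = 7e-07). Cyp39a1, an oxysterol hydroxylase of bile acid synthesis, had 24.9, 26.9, 19.6 and 32.4 CPM against 196, 177, 236 and 212 CPM, 7.92-fold higher (log2 2.99 ± 0.25, adjusted p = 1.68e-08). Cyp7a1, the rate-limiting enzyme, had 153, 150, 116 and 153 CPM against 202, 133, 99.7 and 370 CPM (log2 0.49 ± 0.58, adjusted p = 0.644), overlapping sets with a wide restricted spread. Slc22a7, a transporter of organic anions, fell from 83.1, 189, 113 and 127 CPM to 2.36, 16.2, 9.36 and 3.52 CPM (log2 -4.03 ± 0.42, adjusted p = 2.52e-06; -4.65 without restricted replicate 2). Of 29 tested genes of bile acid synthesis and transport 4 rose and 7 fell, and of 30 genes of lipoproteins and lipid droplets 5 rose and 4 fell. The shares over all genes were 5.44% up and 6.71% down.

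Amino acid breakdown leaned down and gluconeogenesis had mixed members. Of 64 genes of the urea cycle and amino acid breakdown 16 fell and 4 rose, against 6.71% and 5.44% of all genes, with a median of -0.19. The count of 16 was 7 without restricted replicate 4, 9 without restricted replicate 3, 10 without fed replicate 1, 2 or 4, 7 with total-count scaling and 5 in the 8 libraries alone. Bhmt, which remethylates homocysteine, fell from 3360, 4993, 3982 and 7841 CPM to 1444, 1768, 1583 and 1139 CPM (log2 -1.77 ± 0.27, adjusted p = 0.000137). Agxt2, a mitochondrial aminotransferase, fell by 0.77 ± 0.16 on the log2 scale (adjusted p = 0.00183), whereas Ass1 of the urea cycle rose from 2753 ± 291 to 4072 ± 679 CPM (log2 0.56 ± 0.14, adjusted p = 0.0105; 0.00184 to 0.0881 over the alternatives, the highest in the 8 libraries alone).

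For gluconeogenesis and glycogen 2 of 28 genes rose and 5 fell, and for glycolysis and fructose use 2 of 25 rose and 3 fell. Over all genes 5.44% rose and 6.71% fell, and these small counts were not tested against those shares. Pck1, which opens gluconeogenesis from pyruvate, had 3170, 3565, 2545 and 1946 CPM in fed and 165, 3261, 510 and 1081 CPM in restricted liver. Restricted replicate 2 lay within the fed range and the other restricted libraries below it, and the change of -1.16 ± 0.65 did not pass (adjusted p = 0.267), but was -2.26 and passed without that replicate (adjusted p = 0.019; 0.019 to 0.46 over the alternatives). G6pc, which releases free glucose, had 157 to 362 CPM in fed and 133, 145, 352 and 351 CPM in restricted liver (adjusted p = 0.828). Aldoc, an aldolase form that is low in liver, rose from 5.44, 3.31, 6.4 and 4.3 CPM to 15.3, 17.9, 10.3 and 14.5 CPM (log2 1.56 ± 0.20, adjusted p = 5.37e-06).

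Drug metabolism moved in both directions. Of 54 genes 10 rose and 14 fell, 24 of 54 where 12.1% of all genes were called. Aox3, an aldehyde oxidase, fell from 393, 350, 520 and 485 CPM to 90.2, 104, 47.3 and 49.2 CPM, 6.01-fold lower (log2 -2.59 ± 0.22, adjusted p = 1.68e-08). Abcg2, an export pump, fell from 127 ± 4.86 to 34.4 ± 11.6 CPM (log2 -1.88 ± 0.18, adjusted p = 7.83e-08). Ugt1a1, which conjugates bilirubin, rose from 311, 301, 300 and 338 CPM to 628, 691, 744 and 894 CPM (log2 1.24 ± 0.13, adjusted p = 2.91e-07). Cyp2b10, the classic target of the receptor CAR, rose from 41.4, 51.6, 30.1 and 74.4 CPM to 207, 116, 179 and 181 CPM (log2 1.79 ± 0.37, adjusted p = 0.00299).

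Genes of cell division fell from a low level. Of 47 tested genes of proliferation and DNA replication 21 fell and 2 rose, against 6.71% and 5.44% of all genes. Their median was -1.22, and in the 8 libraries alone 8 fell. The helicase subunit Mcm5 had 13.7, 7.47, 6.16 and 3.14 CPM in fed and 0.524, 0.433, 0.839 and 0.425 CPM in restricted liver, 13.5-fold lower (log2 -3.76 ± 0.44, adjusted p = 2.98e-06). Mcm6 of the same ring fell from 9.87 ± 6.17 to 1.12 ± 0.379 CPM (adjusted p = 2.19e-05) and Mcm2 from 7.70 ± 4.1 to 2.06 ± 0.756 CPM (adjusted p = 0.00231). E2f1, a factor that starts S phase, had 1.65 to 2.94 CPM against 0.0606 to 0.758 CPM (log2 -2.34 ± 0.41, adjusted p = 0.00039). The proliferation marker Mki67 had 2.39, 5.94, 2.56 and 2.98 CPM against 0.393, 1.19, 0.795 and 1.15 CPM (log2 -2.004 ± 0.447, adjusted p = 0.00406).

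Gins2, which encodes a subunit of the replicative helicase complex, had 108 counts in the fed and 2 in the restricted libraries (adjusted p = 4.36e-06). Its ratio of 58.0 has a 95% exact interval of 15.7 to 485 for counting error alone. Its 2 restricted counts were in replicate 3, and the fitted change of -5.54 was -7.66 without it. The 2 members that rose were the tubulins Tubb5, from 58.2 ± 5.62 to 104 ± 22.4 CPM (log2 0.84 ± 0.17, adjusted p = 0.00131), and Tuba1b, genes that cells use outside division as well. Cdkn1a, an inhibitor of the cell cycle and target of p53, had 14.2 to 40.3 CPM in fed and 8.44 to 27.6 CPM in restricted liver (adjusted p = 0.769). None of 25 tested p53 targets rose and 4 fell, where 5.44% of all genes rose and 6.71% fell.

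Clock genes were measured in livers whose hour of collection is not stated, nor whether it was the same for all. Of 23 tested clock genes 3 rose and 4 fell, against 5.44% and 6.71% of all genes. Nr1d1, a repressor of the clock's positive arm, had 5.99, 1.84, 2.44 and 1.08 CPM in fed and 0.916, 0.595, 0.618 and 0.243 CPM in restricted liver (log2 -2.23 ± 0.49, adjusted p = 0.00418; -1.56 without fed replicate 1). Dbp and Per3, outputs of the clock, fell by 1.76 ± 0.40 and 1.73 ± 0.43 on the log2 scale (adjusted p = 0.0046 and 0.00921). Arntl, its positive arm, had 3.29 to 7.36 CPM against 8.06 to 11.9 CPM (log2 0.96 ± 0.31, adjusted p = 0.0385; 0.0247 to 0.14 over the alternatives), and its call was lost in 7 of 16, among them those without fed replicate 1, 2 or 3, without restricted replicate 3 or 4 and in the 8 libraries alone. Per2 rose (log2 0.74 ± 0.22, adjusted p = 0.0295; 0.00586 to 0.169 over the alternatives) and was called in 10 of 16, not without fed replicate 2, 3 or 4 or restricted replicate 1 or 4. A difference in level, a shift of phase and a difference in the hour of collection cannot be told apart here. The E-box letters CACGTG, which clock factors bind, stood in 5 of 19 clock genes of the promoter table and in 8.09% of all genes.

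Stress programmes had calls in both directions, where 12.1% of all genes passed. Of 24 tested ATF4 targets 1 rose and 3 fell, and Atf4, the gene of that factor, had 8.8 to 11.4 CPM in fed and 9.42, 20.9, 15.5 and 13.3 CPM in restricted liver (adjusted p = 0.112). Of 31 genes of the unfolded protein response 1 fell and none rose, of 31 heat shock chaperones 4 rose and none fell, and of 37 genes of NRF2 and glutathione 2 rose and 5 fell. Gdf15, a cytokine of cell stress, had 1.16 to 2.45 CPM against 0.556 to 3.76 CPM (adjusted p = 0.852). On the iron list 4 of 24 genes rose and none fell, against 5.44% and 6.71% of all genes, and 20 did not pass. Fth1, the ferritin heavy chain, had 553, 382, 287 and 424 CPM in fed and 1428, 1551, 592 and 1621 CPM in restricted liver (log2 1.66 ± 0.34, adjusted p = 0.00271), and the light chain Ftl1 rose from 451 ± 103 to 1200 ± 403 CPM (adjusted p = 0.0125). Hmox1, which frees iron from haem, had 12.5, 11.2, 12.9 and 13.1 CPM against 30.5, 17.4, 29.6 and 64.6 CPM (log2 1.52 ± 0.25, adjusted p = 0.0002), and the iron exporter Slc40a1 rose from 158 ± 20.4 to 287 ± 17.8 CPM (adjusted p = 0.00265).

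Acute-phase proteins of the serum amyloid A group were lower under restriction. Saa1 had 30.2, 898, 139 and 54.9 CPM in fed and 3.37, 8.66, 5.48 and 12.8 CPM in restricted liver. The sets do not overlap, fed replicate 2 was far above the rest, and the log2 change was -5.23 ± 1.42 (adjusted p = 0.0208; 2.12e-05 to 0.105 over the alternatives). Without fed replicate 2 it was -3.29 and did not pass, nor did it pass without restricted replicate 1 or 4 or in the 8 libraries alone. Saa2 behaved alike, at -5.05 ± 1.46 with and -3.12 without that library (adjusted p = 0.0289; 0.000173 to 0.145 over the alternatives), and among the alternatives in which it did not pass were those without fed replicate 2 or restricted replicate 1, 3 or 4 and the 8 libraries alone (adjusted p = 0.077). Saa4, the constitutive member, had 111, 317, 152 and 224 CPM against 13, 40.9, 25.7 and 16.5 CPM (log2 -3.07 ± 0.48, adjusted p = 0.000298). Of 26 acute-phase genes 4 fell and none rose, and of 41 interferon response genes 1 rose and 5 fell, where 6.71% of all genes fell and 5.44% rose. Of 52 secreted liver proteins 11 rose and 5 fell.

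Markers of some other liver cells leaned up in restricted liver. Of 17 stellate cell and fibroblast markers 9 rose and none fell, against 5.44% and 6.71% of all genes, with a median of 0.79. Their summed level was 386, 509, 450 and 581 CPM in fed and 571, 709, 1127 and 1101 CPM in restricted liver, highest in replicates 3 and 4. Dcn, a matrix proteoglycan, had 99, 141, 111 and 146 CPM against 193, 201, 351 and 325 CPM (log2 1.11 ± 0.18, adjusted p = 0.000173). Pdgfra, a growth factor receptor of fibroblasts, rose from 5.14 ± 2.02 to 14.3 ± 4.69 CPM (adjusted p = 0.0016), and Hhip, which binds hedgehog ligands, from 0.558 ± 0.16 to 2.03 ± 0.828 CPM (adjusted p = 0.0011).

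The next counts of risen markers stand beside 5.44% of all genes that rose, and were not tested against it. Of 20 tested Kupffer cell and macrophage markers 3 rose, with summed levels of 303 to 363 CPM in fed and 370, 377, 562 and 511 CPM in restricted liver. Marco, a scavenger receptor, had 1.14, 0.368, 0.88 and 0.165 CPM against 6.48, 1.57, 8 and 6.79 CPM (log2 3.02 ± 0.56, adjusted p = 0.00105). Clec4f, a lectin of Kupffer cells, had 83 to 92.4 CPM against 103, 113, 155 and 148 CPM (log2 0.53 ± 0.15, adjusted p = 0.019; 0.0067 to 0.0708 over the alternatives, above 0.05 without fed replicate 1 and in the 8 libraries alone). Of 17 endothelial markers 4 rose, and their sums were 562 to 639 CPM in fed and 597, 661, 964 and 969 CPM in restricted liver. Of 7 B and plasma cell markers 3 rose, with the antibody light chain Igkc at 0.68 to 1.29 CPM in fed and 1.31, 4.98, 10.2 and 3.64 CPM in restricted liver (log2 2.52 ± 0.54, adjusted p = 0.00394; 1.93 without restricted replicate 3).

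Further marker lists went down or did not pass. Of 7 erythroid markers Alas2 fell, the haem-synthesis gene of red cells, from 25.5, 21, 112 and 127 CPM to 6.25, 7.96, 4.33 and 6.43 CPM (log2 -3.51 ± 0.72, adjusted p = 0.00313), and the list's sum went from 1329 to 2066 CPM down to 675 to 1223 CPM. Of 2 tested adipocyte markers Car3 fell, a carbonic anhydrase that liver also makes, from 2371, 1306, 1919 and 2157 CPM to 133, 285, 546 and 106 CPM. None of 5 neutrophil, 8 cholangiocyte, 4 exocrine pancreas and 1 T and NK cell marker tested passed. In the T and NK list, 1 of whose 16 members reached the filter, Klrb1c had no count in the 8 libraries. Hepatocyte markers summed to 167843 to 184360 CPM in fed and 192043 to 269202 CPM in restricted liver, with albumin their largest part. The part of these other cells in the results above was not tested.

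The response of wild types was set beside that of Ercc1 d/- mutants, whose libraries are separate. Restriction changed 1420 genes in mutants, 11.6% of those tested, with 682 up and 738 down. A total of 543 genes passed in both genotypes and 534 of them moved the same way, which is 36.0% of the wild-type and 37.6% of the mutant calls. The 22 Mup genes fell in both, with medians of -3.88 and -4.26, and Lepr (5.27 and 5.66), Cyp39a1 (2.99 and 3.04) and Igfbp2 (2.74 and 1.10) rose in both on the log2 scale. Ribosomal protein genes had medians of 1.18 and 0.93, with 63 and 37 up.

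The difference between the responses was tested directly, and 98 genes passed, 0.803% of those tested, 63 with a higher and 35 with a lower response in mutants. A further fit without restricted wild-type replicate 1 called 205, one without fed replicate 3 called 61 and DESeq2 called 271. Cd36 (chromosome 5, 17781690 to 17888959) fell in wild types (log2 -2.18 ± 0.26) and rose in mutants from 63.8 to 90.2 CPM up to 190 to 220 CPM (log2 1.37 ± 0.25), a difference of 3.55 ± 0.36 (adjusted p = 1.13e-05). Cyp2c29, a drug-metabolising P450, fell from 1182, 2095, 1065 and 1684 CPM to 607, 554, 821 and 980 CPM in wild types (log2 -1.02 ± 0.21) and rose in mutants from 144 ± 17.8 to 403 ± 60 CPM (adjusted p = 3.44e-05 for the difference). Etnk2, an ethanolamine kinase, likewise fell in wild types (-1.02 ± 0.19) and rose in mutants (0.57 ± 0.18).

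Other genes of this group moved in one genotype or by unequal amounts. Cyp2c39 and Cyp2c38 rose in both, by 0.95 and 0.96 in wild types and 3.27 and 3.18 in mutants, from fed levels that were 456 and 252 CPM in wild types and 81.0 and 39.4 CPM in mutants. Cyp3a41b did not pass in wild types, with 414 to 650 CPM in fed and 254 to 936 CPM in restricted liver (log2 0.04 ± 0.24). It rose by 2.27 ± 0.25 in mutants. Cyp3a41a had similar wild-type means, 603 against 528 CPM in fed and 619 against 541 CPM in restricted liver. Its responses also differed by 2.24, and how reads shared between these genes were counted is not given. Etnppl, a phospholyase, gave -0.32 ± 0.33 in wild types (adjusted p = 0.592) and 2.79 ± 0.35 in mutants. Aldoc rose by 1.56 ± 0.20 in wild types and gave -0.19 ± 0.19 in mutants, where the fed level was already 18.5 ± 2.33 CPM. Fitm1 fell in both, by 4.01 in wild types and 1.30 in mutants on the log2 scale.

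Cholesterol synthesis had medians of opposite sign in the 2 genotypes. The list had 8 up and 1 down in wild types and 0 up and 4 down in mutants, with medians of 0.73 and -0.59, and for 4 members the responses differed. Sqle had a log2 change of 3.18 ± 0.65 in wild types and -0.78 ± 0.57 in mutants (adjusted p = 0.0316 for the difference), and fed mutants stood at 47.8 ± 7.2 CPM where fed wild types had 2.74 ± 1.77 CPM. Amino acid breakdown had 4 up and 16 down in wild types and 23 up and 6 down in mutants, and the responses of 4 members differed. Slc10a2 fell by 4.77 ± 0.46 in wild types and had -1.02 ± 0.38 in mutants (adjusted p = 0.00165 for the difference).

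**Figure D5:**
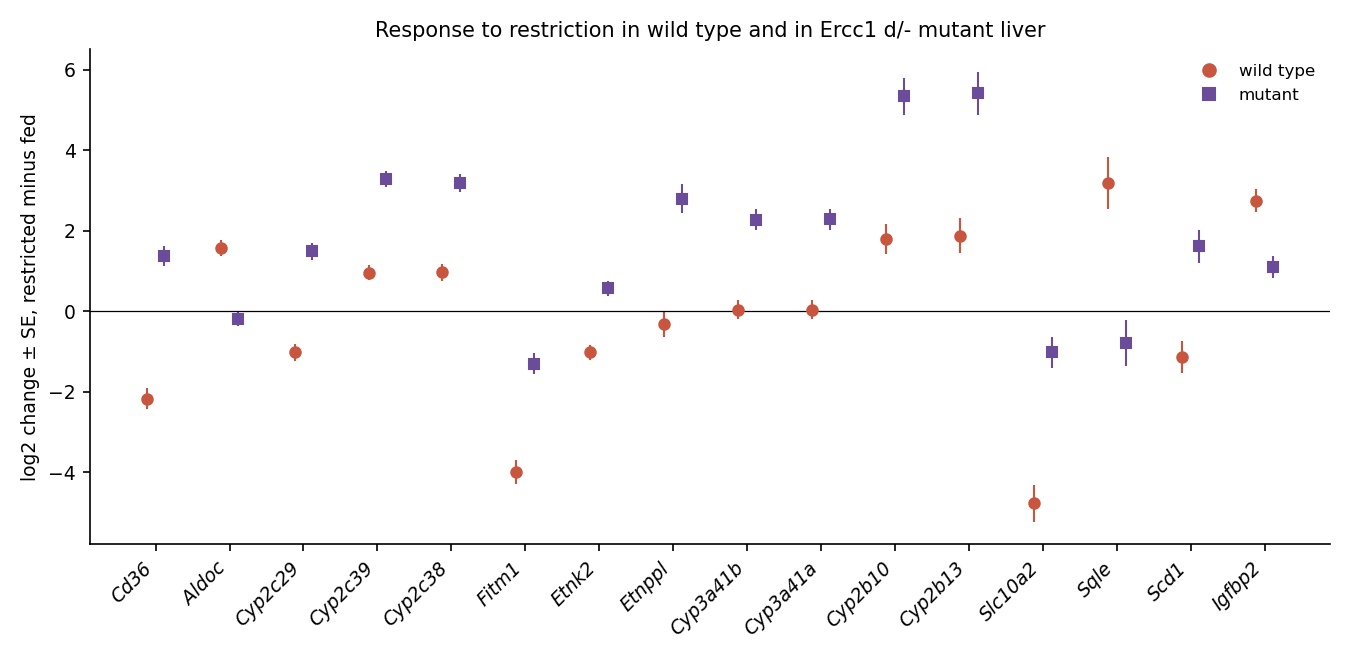
Log2 change ± SE (y axis, restricted minus fed) of 16 genes whose responses differed between genotypes (x axis), in wild-type (circles) and Ercc1 d/- (squares) liver. Cd36 lies at -2.18 in wild types and 1.37 in mutants, and Sqle at 3.18 and -0.78.

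Counts of ribosomal P-sites, the position from which a ribosome's reading frame is taken, were deposited per open reading frame (ORF) as well. Of 18344 tested ORFs 1982 passed, 10.8%, with 1010 up and 972 down, and the count was 826 in the 8 libraries alone and 1110 without restricted replicate 4. Of 694 transcripts with at least 2 tested ORFs 21 had 2 or more that passed, and in none of them did the ORFs move in opposite directions. The table pairs ORFs with transcripts and no gene, so none is named.

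Gene length was compared because unrepaired DNA damage is known to lower the output of long genes. The mean log2 CPM of the 2442 longest tested genes minus that of the 2442 shortest was -0.45, -0.57, -0.43 and -0.46 in fed and -0.55, -0.46, -0.67 and -0.96 in restricted wild types. The difference of -0.18 did not pass (exact 2-sided permutation p = 0.171), restricted replicate 4 stood lowest, and without it the difference was -0.08.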

How the data were processed

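Ribosome footprints were measured in 24 mouse livers. The deposited gene table holds raw read counts per Ensembl gene, and the deposited ORF table raw P-site counts, per the file headers and values. Named in the submitters' processing notes are build GRCm38.p6, the aligners Bowtie2 2.4.2 and STAR (2.7.0f, 2.7.8a), the trimmers cutadapt 3.4 and Trimmomatic 0.39, and Subread 1.6.4 with featureCounts. How reads that match several genes, strand and ORF choice were handled is not stated in the sources used here. The mRNA-seq of the same livers was not used here.

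In R 4.3.3, edgeR 4.0.16 kept 12211 of 22429 genes (filterByExpr), scaled libraries by TMM and fitted a robust quasi-likelihood model over 6 groups of 4 libraries, with 18 residual degrees of freedom. The threshold was an adjusted p of 0.05, and the SE is the log2 change divided by the square root of F. Shares and the length trend were compared by exact permutation over 70 assignments. Alternatives were other scalings, filters, DESeq2 1.42.0, the compared libraries alone, a replicate block and leaving out each library.

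Groups, 50 gene lists and tests were chosen with earlier results of these data known. Genes were named as the 15 largest rises and falls of at least 5 CPM without overlap, up to 6 list members with the smallest adjusted p, a set of followed genes and the 10 smallest adjusted p between genotypes. Not every gene so picked is given. Some results are not reported here.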

Additional observations from a re-analysis of the deposited data

Results flagged for a closer look

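Among the 4 libraries of a group, 1 stood far from the others for 23 of the 240 gene and group pairs looked at, where chance sets about 1 in 20 apart. In fed liver these were Bcl6 at 23.4 CPM in replicate 4, Hsd3b5 at 90.1 in replicate 2, C6 at 135 in replicate 1, Sult3a2 at 0.0800 in replicate 3, Cux2 at 0.24 in replicate 3, Ghr at 163 in replicate 4 and Foxo3 at 13.8 in replicate 3. Further ones were Rps24 at 57.5 in replicate 4, Slc10a2 at 82.0 in replicate 2, Cyp7a1 at 116 in replicate 3, Mki67 at 5.94 in replicate 2, Saa1 at 898 and Saa2 at 368 in replicate 2, and Clec4f at 83.0 in replicate 1. In restricted liver Mup3 had 2486, C8a 110 and Fitm1 2.71 CPM in replicate 2. Restricted replicate 4 had Igfbp1 at 219, Pdk4 at 25.2 and Fau at 319 CPM. Restricted replicate 1 had Ehhadh at 1968 and Etnppl at 212 CPM, and replicate 3 had Gins2 at 0.0883 CPM.

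The response to restriction differed between genotypes, by the test of the difference, for 20 genes named in the text besides Cyp3a41a. The log2 response in mutants minus that in wild types was 3.54 for Cyp2b13, 3.55 for Cd36, 3.55 for Cyp2b10, 3.75 for Slc10a2, 4.38 for Gins2, 3.11 for Etnppl, 2.701 for Fitm1 and 2.75 for Scd1. It was 2.51 for Cyp2c29, 2.32 for Cyp2c39, 2.22 for Cyp2c38, 2.24 for Cyp3a41b, 2.02 for Wipi1, 1.59 for Etnk2 and 0.80 for Eif4g3. Lower responses in mutants were found for Sqle (-3.96), Hhip (-2.38), Cyp51 (-1.81), Aldoc (-1.75) and Igfbp2 (-1.64).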

How the results depend on the processing

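The 1483 genes called were 658 in the 8 libraries alone and 941 to 1864 with 1 library left out. The 98 genes whose response differed between genotypes were 271 in DESeq2 and 61 to 205 with 1 library left out. The 1982 ORFs called were 826 in the 8 libraries alone and 1110 to 2429 with 1 library left out. In the 8 libraries alone, members called were 9 Mup, 12 female-biased, 8 proliferation, 3 cholesterol synthesis and 5 amino acid breakdown genes. Translation factors called higher were 8 with no filter and 7 to 21 with 1 library left out, ribosomal protein genes 38 to 64, cholesterol genes 13 in DESeq2 and 3 to 12, and amino acid breakdown genes 7 with total counts and 7 to 18. With 1 library left out the smallest exact permutation p is 0.0571. The differences in share were then 5.76 to 7.21 percentage points for Alb, -7.24 to -5.7 for Mup and 3.66 to 5.89 for the 10 largest genes. In all 8 libraries without albumin and Mup counts, the difference was -2.35 for the 10 largest of the remaining genes. None of the single genes that changed sign was called. With 1 library left out, Ercc1 ranged from -0.158 to 0.328 (below 0 without restricted replicate 3), Bcl6 from -1.88 to 0.458 (above 0 without fed replicate 4), Igfbp1 from -0.404 to 2.81 and Gdf15 from -0.275 to 0.563 (both below 0 without restricted replicate 4), Igf1 from -0.103 to 0.151 and Cyp3a41b from -0.359 to 0.269. Igf1 was at 0.006775 with upper-quartile factors and 0.0235 with total counts, and Cyp3a41b at -0.0258 with the replicate block. Same-numbered fed and restricted libraries correlated at 0.179, 0.0152, 0.0731 and 0.128 in their deviations from the group means. The labels do not state pairs and the numbers were not taken to pair mice. A replicate block gave 1398 genes, 589 higher and 809 lower. The block ended the calls of Pdk4, Arntl and Saa2 and made one of Scd1, and changed no other call among the genes named. Libraries numbered 1, 3 and 4 correlated best with their own number in both directions, and those numbered 2 did not. Whether mice were paired was not tested. Genes with few counts, such as Sult3a2 and Gins2, are limited by depth. Where no construction of the alternative shows it, the cause was not tested.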
